A study of Homo sapiens with 12 samples.

Results

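SLC2A1, SLC2A3, HK2, PFKFB3, PFKFB4, ALDOC, ENO2, PGK1, LDHA and PDK1 bring glucose into the cell, carry it down glycolysis and set what becomes of the pyruvate it yields. These 10 genes were taken as a named list, and every probe that carried their gene symbols was used, 15 of the 47320 probes on the array. HK2, PFKFB3 and PGK1 had 2 probes each, LDHA had 3 and the other 6 genes had 1. A probe was counted as detected on an array where its detection p-value, the chance of so bright a signal from background, was under 0.01. By this measure 14 of the 15 probes were detected on all 12 arrays, and the PDK1 probe was detected on 7.

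The arrays measured RNA from U87, an established human glioma cell line, grown in culture medium with serum. All cells had been transfected with an siRNA, either against BCL3, a nuclear relative of the I-kappa-B proteins that binds NF-kB subunits, or a control siRNA. The transfected cells then received temozolomide (TMZ), a DNA-methylating drug given to patients with glioblastoma, or DMSO; the drug was present at 100 µM over the 24 h before RNA extraction. This gave 4 groups of 3 arrays: control siRNA with DMSO, control siRNA with TMZ, BCL3 siRNA with DMSO and BCL3 siRNA with TMZ. No group was free of transfection, and all come from a single cell line. The labels do not say whether the 3 replicates of a group were separate cultures, so each p-value rests on a spread between samples that may be technical. In RNA from whole cultures, fewer cells that express a gene and less RNA per cell cannot be told apart.

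Glucose enters most cells through facilitative transporters such as SLC2A1 (GLUT1) and SLC2A3 (GLUT3), and hexokinases trap it as glucose 6-phosphate. The bifunctional PFKFB enzymes make or remove fructose 2,6-bisphosphate, the strongest activator of the committed phosphofructokinase step, after which aldolase, phosphoglycerate kinase and enolase lead to pyruvate. LDHA turns pyruvate into lactate, and PDK1 holds pyruvate back from the mitochondria by phosphorylating pyruvate dehydrogenase. Glioblastomas are known for high glucose uptake, and all of these genes are textbook targets of the hypoxia-inducible factors.

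Mean raw intensity per array was 292 ± 25.8 (SD, n = 3) under DMSO and 262 ± 1.39 under TMZ in cells with control siRNA. In cells with BCL3 siRNA it was 248 ± 15.8 under DMSO and 267 ± 22.1 under TMZ. The 3 arrays of control siRNA with DMSO, at 266 to 318, were brighter than the 3 arrays of control siRNA with TMZ and the 3 arrays of BCL3 siRNA with DMSO, so overall brightness moved with those comparisons. BCL3, the targeted transcript, read 7.25 to 7.47 on the normalized log2 scale on the arrays of control siRNA and 6.28 to 6.57 on those of BCL3 siRNA. It was lower by 0.98 log2 units under DMSO (limma adjusted p = 7.56e-07) and by 0.76 under TMZ (adjusted p = 7.09e-06). Of 11 glioma, astrocyte-lineage and mesenchymal markers, 5 (VIM, CD44, NES, S100A6 and TNC) were detected on all 12 arrays and 4 (GFAP, S100B, AQP4 and SOX2) on none. Of 6 leukocyte and microglial markers on the array, CD68 was detected on all 12, AIF1 on 10, CD14 on 9, and PTPRC, CD3E and ITGAM on none. Their summed raw intensity, with CD68 the brightest of them, was highest with control siRNA and DMSO (2672 to 3069). It was 2377 to 2593 with control siRNA and TMZ. After BCL3 siRNA it was 1948 to 2233 under DMSO and 2272 to 2590 under TMZ. The sum of the 11 glioma, astrocyte-lineage and mesenchymal markers was also highest with control siRNA and DMSO (33048 to 39080). In the other groups, in the same order, that sum was 30131 to 32036, 24035 to 28715 and 25071 to 29958. The part of these sums in the results was not tested. Of the neuronal, oligodendrocyte, epithelial and endothelial markers on the array, SNAP25 was detected on all 12 arrays, EPCAM on 11, SYT1 on 6, PECAM1 on 1 and the others on none.

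All values below are normalized log2 intensities, a fold change is the difference of group means on that scale, and a probe is said to have risen or fallen where its limma p-value, adjusted by Benjamini and Hochberg over all 18105 probes tested, was under 0.05. With BCL3 siRNA under DMSO 4 of the 15 probes rose (SLC2A1, HK2 probe 2, PFKFB4 and LDHA probe 3) and 1 fell (ENO2). These 5 are 33.3% of the 15 probes, where 34.9% of all probes tested passed in either direction, 17.6% upward and 17.3% downward. The arrays of 8 probes lay higher without overlap and those of 1 lower, against 23.7% and 22.3% of all probes. With BCL3 siRNA under TMZ 5 rose (the same 4 and PGK1 probe 2) and 1 fell (ENO2), 6 of 15 against 33.5% of all probes, 16.8% upward and 16.7% downward. The arrays of 7 probes lay higher without overlap and those of 1 lower, against 23.4% and 22.5%. The share of the 15 probes called in either direction with BCL3 siRNA thus lay near that of the whole array. Rises, and arrays that lay higher without overlap, were more frequent among the 15 than over all probes. The rises of HK2 probe 2, LDHA probe 3 and PGK1 probe 2 came from genes whose brighter probes gave no call here. By the brightest probe of each of the 10 genes, 2 rose and 1 fell in each comparison. Over all genes 38.1% passed in either direction under DMSO and 36.0% under TMZ. Of the 15 values 13 lay above 0 under DMSO and 12 under TMZ. With arrays scaled to equal medians over all probes, 4 and 10 did. What follows for these comparisons is about single genes.

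TMZ changed few probes, and member probes were among them. With control siRNA SLC2A1, PFKFB3 probe 1, PFKFB4 and PGK1 probe 2 fell and none rose, where 0.497% of all probes passed in either direction and 0.226% fell and 0.271% rose; 9 members and 2496 probes had an unadjusted p under 0.05. With BCL3 siRNA SLC2A1, PFKFB3 probe 1 and PFKFB4 fell and none rose, where 0.475% of all probes passed and 0.204% fell and 0.271% rose; 8 members and 2568 probes had an unadjusted p under 0.05. The median log2 fold change of the 15 probes was -0.25 in the cells of control siRNA and -0.16 in those of BCL3 siRNA, against 0.000517 and 2.33e-05 over all probes. In both comparisons 14 of the 15 values were below 0. With control siRNA 11 of the 15 probes were lower on every TMZ array than on any DMSO array, a pattern shown by 10.6% of all probes, and with BCL3 siRNA 8 of 15 were, against 9.20%. None of the 15 was higher without overlap in either, where 10.8% and 9.13% of all probes were. The 2 TMZ comparisons use different arrays, but each shares a group with the 2 BCL3 siRNA comparisons: a high value in control siRNA with DMSO lowers both the TMZ value and the BCL3 value computed from it. A low value in control siRNA with TMZ lowers the TMZ value and raises the BCL3 value computed from it. So does a high value in BCL3 siRNA with DMSO.

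**Figure D1:**
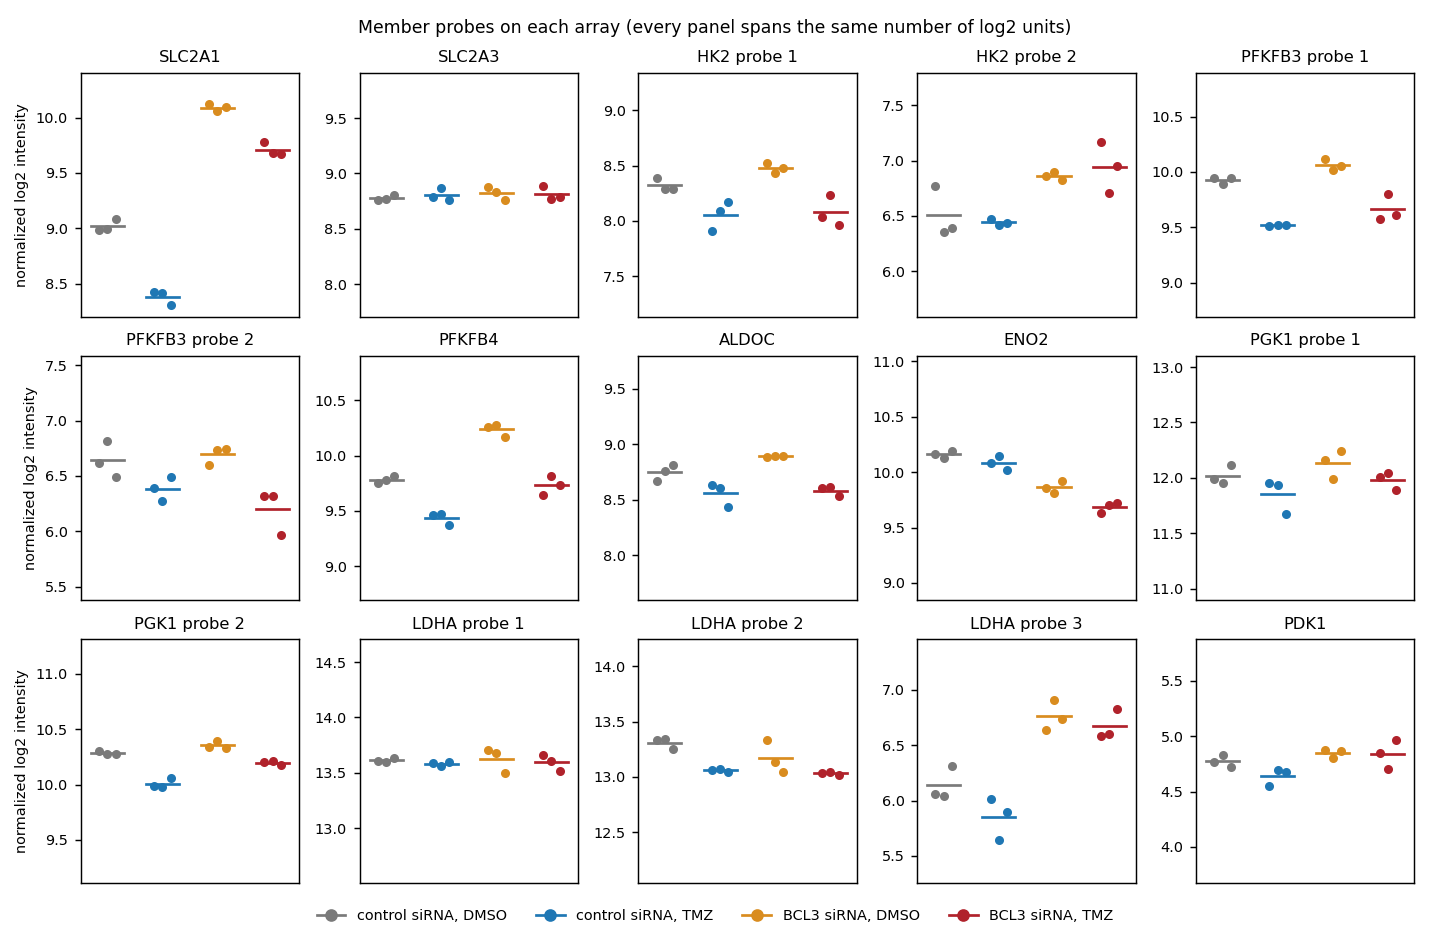
Normalized log2 intensity of the 15 probes on each of the 12 arrays, 1 panel per probe with the same number of log2 units on each y axis; points are arrays and lines are group means (n = 3). SLC2A1 shows 4 separate levels from 8.31 to 10.12, ENO2 is lower on the 6 arrays of BCL3 siRNA, and SLC2A3 stays between 8.76 and 8.89 on all 12 arrays.

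The stretches of genome before the starts of SLC2A1, PFKFB4 and ENO2 are shown because these 3 genes, each with a single probe, were called in both BCL3 siRNA comparisons, 2 upward and 1 downward. The sequences are from RefSeq, build GRCh38.p14, written 5′ to 3′ along the gene's strand, with 250 bases before the transcript start and 30 bases from it. SLC2A1 lies at chr1:42958839-42959118 (minus strand), PFKFB4 at chr3:48556774-48557053 (minus strand) and ENO2 at chr12:6914330-6914609 (plus strand). Capitals mark ACGTG or GCGTG, read on either strand, the core letters that hypoxia-inducible factors bind.
SLC2A1: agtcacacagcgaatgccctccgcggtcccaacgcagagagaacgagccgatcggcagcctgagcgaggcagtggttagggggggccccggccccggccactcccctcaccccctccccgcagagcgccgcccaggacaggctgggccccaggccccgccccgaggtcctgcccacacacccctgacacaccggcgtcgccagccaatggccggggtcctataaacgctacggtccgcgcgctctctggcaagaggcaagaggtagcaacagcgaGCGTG
PFKFB4: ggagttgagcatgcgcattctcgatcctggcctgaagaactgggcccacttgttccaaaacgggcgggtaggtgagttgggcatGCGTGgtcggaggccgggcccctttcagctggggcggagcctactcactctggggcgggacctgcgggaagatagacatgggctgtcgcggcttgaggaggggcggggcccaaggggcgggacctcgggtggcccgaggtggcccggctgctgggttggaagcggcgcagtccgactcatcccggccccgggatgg
ENO2: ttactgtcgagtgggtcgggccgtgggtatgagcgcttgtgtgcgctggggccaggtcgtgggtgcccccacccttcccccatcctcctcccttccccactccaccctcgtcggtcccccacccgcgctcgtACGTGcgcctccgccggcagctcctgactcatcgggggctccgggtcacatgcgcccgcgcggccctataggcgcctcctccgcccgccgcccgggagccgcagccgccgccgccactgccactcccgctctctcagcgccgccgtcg
Each of the 3 holds 1 match: GCGTG begins 25 bases after the first transcribed base in SLC2A1 and at position -166 from it in PFKFB4, and ACGTG begins at position -118 in ENO2. RefSeq promoters of 300 bases, 250 before and 50 after a start, were matched for 9 of the 10 genes, 13 promoters in all. ACGTG or GCGTG was present in 12 of the 13 and in all 9 genes, against 48.4% of 35116 promoters of the same length. ACGTG alone was in 8 of 13 (21.4% of all promoters) and GCGTG in 9 of 13 (36.5%). CACGTG, the E-box letters read by MYC and related factors, was in 4 of 13 promoters, of HK2, PFKFB3, ALDOC and LDHA, against 7.26% of all; every CACGTG also holds ACGTG on both strands. The genes are known as targets of the hypoxia-inducible factors, so a higher share of these letters is not a separate finding. HK2, PFKFB3, LDHA and PDK1 count with 2 promoters each, and the promoters compared were not matched for base composition. A match is a run of letters in these windows and not a measured binding site.

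SLC2A1, the basal glucose transporter of most cells, had the largest differences of the 15 probes in both BCL3 siRNA comparisons. Its 3 arrays read 8.98, 8.99 and 9.09 with control siRNA and DMSO, and 10.12, 10.06 and 10.10 with BCL3 siRNA and DMSO. Under TMZ they read 8.42, 8.41 and 8.31 with control siRNA and 9.78, 9.68 and 9.67 with BCL3 siRNA. The 4 groups did not overlap, and ran in the order BCL3 siRNA with DMSO, BCL3 siRNA with TMZ, control siRNA with DMSO and control siRNA with TMZ. BCL3 siRNA raised SLC2A1 2.10-fold under DMSO (log2 fold change 1.07, SE 0.06, limma adjusted p = 1.34e-07) and 2.51-fold under TMZ (1.33, SE 0.06, adjusted p = 3.37e-08). TMZ lowered it 1.56-fold with control siRNA (log2 fold change -0.64, SE 0.06, adjusted p = 0.00058) and 1.30-fold with BCL3 siRNA (-0.38, SE 0.06, adjusted p = 0.0164). The 2 responses to BCL3 siRNA differed by 0.25 log2 units, with a 95% interval of 0.07 to 0.44 and an unadjusted p of 0.0123, which did not pass adjustment over all probes (limma adjusted p = 0.623). The call under each siRNA comparison, and the fall with TMZ and control siRNA, held in all 29 other settings tried, but the fall with BCL3 siRNA was lost in 8 of them.

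SLC2A3, the high-affinity transporter known from neurons, gave no call in any comparison. Its 12 values lay between 8.76 and 8.89, and the arrays of every pair of groups overlapped. The 95% intervals of its log2 fold changes were -0.08 to 0.18 for BCL3 siRNA under DMSO, -0.12 to 0.14 under TMZ, -0.10 to 0.16 for TMZ with control siRNA and -0.14 to 0.12 with BCL3 siRNA. Each interval leaves out a change of the size seen for SLC2A1 in the same comparison. SLC2A3 has a near-identical paralog, SLC2A14, and a probe could bind both transcripts, which was not tested here.

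The HK2 probes did not agree. HK2 encodes the hexokinase that binds mitochondria and is abundant in glioma. Probe 1 read 8.39, 8.29 and 8.29 with control siRNA and DMSO and 7.91, 8.09 and 8.18 with control siRNA and TMZ. After BCL3 siRNA its arrays read 8.52, 8.44 and 8.48 under DMSO and 8.04, 8.24 and 7.96 under TMZ. With this probe all TMZ arrays lay below all DMSO arrays of the same siRNA, at log2 fold changes of -0.27 with control siRNA (SE 0.08, limma adjusted p = 0.201) and -0.40 with BCL3 siRNA (SE 0.08, adjusted p = 0.0659), neither past the threshold. Probe 2 read 6.77, 6.36 and 6.39 with control siRNA and DMSO and 6.47, 6.42 and 6.44 with control siRNA and TMZ. After BCL3 siRNA its arrays read 6.86, 6.89 and 6.83 under DMSO and 7.17, 6.71 and 6.95 under TMZ. With this probe all BCL3 siRNA arrays lay above all control siRNA arrays of the same treatment. It rose with BCL3 siRNA by 0.35 under DMSO (SE 0.12, adjusted p = 0.0341) and by 0.50 under TMZ (SE 0.12, adjusted p = 0.00609), while probe 1 gave 0.15 (adjusted p = 0.177) and 0.02 (adjusted p = 0.868). Over the 12 arrays the Pearson correlation of the 2 HK2 probes was 0.11. The rise of probe 2 under DMSO was lost in 9 of 28 other settings, among them leaving out the second or the third array of control siRNA with DMSO or any array of BCL3 siRNA with DMSO (adjusted p from 0.0614 to 0.128).

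PFKFB4, a PFKFB isoenzyme known from hypoxic and tumour cells, followed the order of SLC2A1 in part. It read 9.75, 9.78 and 9.81 with control siRNA and DMSO, and 9.46, 9.48 and 9.38 with control siRNA and TMZ. In cells given BCL3 siRNA it read 10.26, 10.28 and 10.17 under DMSO and 9.64, 9.81 and 9.73 under TMZ. BCL3 siRNA with DMSO stood above all other groups and control siRNA with TMZ below them, while control siRNA with DMSO and BCL3 siRNA with TMZ overlapped. BCL3 siRNA raised PFKFB4 by 0.45 under DMSO (SE 0.06, limma adjusted p = 0.000163) and by 0.29 under TMZ (SE 0.06, adjusted p = 0.00355). TMZ lowered it by 0.34 with control siRNA (log2 fold change -0.34, SE 0.06, adjusted p = 0.0361) and by 0.51 with BCL3 siRNA (-0.51, SE 0.06, adjusted p = 0.00343). The 2 falls were lost in 12 and 2 of 29 other settings, and each rise in 1.

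PFKFB3, the isoenzyme with the highest kinase over phosphatase activity, had a bright and a dim probe. Probe 1 read 9.94, 9.89 and 9.95 with control siRNA and DMSO, and 9.51, 9.52 and 9.52 with control siRNA and TMZ. In cells given BCL3 siRNA it read 10.11, 10.02 and 10.05 under DMSO and 9.58, 9.80 and 9.61 under TMZ. The groups of TMZ lay below the groups of DMSO with either siRNA, without overlap. TMZ gave -0.41 with control siRNA (SE 0.07, limma adjusted p = 0.0157) and -0.40 with BCL3 siRNA (SE 0.07, adjusted p = 0.0191). These calls were lost in 6 and 8 of 29 other settings. Probe 2, between 5.96 and 6.81, gave -0.26 (SE 0.11, adjusted p = 0.32) and -0.50 (SE 0.11, adjusted p = 0.0724), the same sign without a call. BCL3 siRNA gave no call for PFKFB3, with log2 fold changes of 0.13 and 0.14 for probe 1 and 0.05 and -0.18 for probe 2 under DMSO and TMZ.

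ALDOC, the aldolase known from brain, read 8.67, 8.76 and 8.82 with control siRNA and DMSO and 8.63, 8.60 and 8.44 with control siRNA and TMZ. After BCL3 siRNA its arrays read 8.89, 8.89 and 8.90 under DMSO and 8.60, 8.61 and 8.53 under TMZ. The TMZ arrays lay below the DMSO arrays with either siRNA, but neither difference passed: -0.19 with control siRNA (SE 0.07, limma adjusted p = 0.246) and -0.31 with BCL3 siRNA (SE 0.07, adjusted p = 0.0712). BCL3 siRNA gave 0.14 under DMSO (adjusted p = 0.115) and 0.02 under TMZ (adjusted p = 0.819). The call for TMZ with BCL3 siRNA was gained in 7 of 29 other settings.

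PGK1, which makes the first ATP of glycolysis, had 2 probes, of which 1 gave calls. Probe 2 read 10.30, 10.28 and 10.27 with control siRNA and DMSO and 9.99, 9.97 and 10.06 with control siRNA and TMZ. After BCL3 siRNA its arrays read 10.34, 10.39 and 10.33 under DMSO and 10.20, 10.22 and 10.18 under TMZ. Its 4 groups did not overlap and ran in the order BCL3 siRNA with DMSO, control siRNA with DMSO, BCL3 siRNA with TMZ and control siRNA with TMZ. It fell with TMZ and control siRNA (log2 fold change -0.28, SE 0.05, limma adjusted p = 0.0477) and rose with BCL3 siRNA under TMZ (0.19, SE 0.05, adjusted p = 0.0176). The fall lay just inside the threshold and was lost in 18 of 28 other settings, and the rise was lost in 4, among them leaving out the first (adjusted p = 0.0527) or the second (adjusted p = 0.0649) array of control siRNA with TMZ. Probe 1, between 11.68 and 12.24, gave -0.16 (SE 0.09, adjusted p = 0.463) and 0.13 (SE 0.09, adjusted p = 0.321) in the same comparisons, with overlapping arrays. PGK1 and LDHA have processed pseudogenes, and binding of their probes to such copies was not tested.

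ENO2, the enolase known as a neuronal marker, was the member that moved against SLC2A1. It read 10.16, 10.13 and 10.19 with control siRNA and DMSO, and 10.08, 10.14 and 10.02 with control siRNA and TMZ. In cells given BCL3 siRNA it read 9.86, 9.81 and 9.92 under DMSO and 9.63, 9.70 and 9.72 under TMZ. All 6 arrays of BCL3 siRNA lay below all 6 arrays of control siRNA. BCL3 siRNA lowered ENO2 1.23-fold under DMSO (log2 fold change -0.30, SE 0.06, limma adjusted p = 0.00229) and 1.32-fold under TMZ (-0.40, SE 0.06, adjusted p = 0.00032). TMZ gave -0.08 with control siRNA, with overlapping arrays (adjusted p = 0.599), and -0.18 with BCL3 siRNA, without overlap but not past the threshold (adjusted p = 0.216). With the arrays' mean raw intensity as a covariate the fall under DMSO was -0.27 (adjusted p = 0.0615), no longer a call.

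LDHA had 3 probes, 2 bright and 1 dim, that did not agree. Probe 1 lay between 13.50 and 13.70 and probe 2 between 13.02 and 13.35 over the 12 arrays, and neither gave a call in any comparison. Probe 3 read 6.06, 6.04 and 6.31 with control siRNA and DMSO and 6.02, 5.65 and 5.90 with control siRNA and TMZ. After BCL3 siRNA its arrays read 6.64, 6.91 and 6.74 under DMSO and 6.58, 6.60 and 6.83 under TMZ. With probe 3 all arrays of BCL3 siRNA lay above all arrays of control siRNA. It rose by 0.62 under DMSO (SE 0.11, limma adjusted p = 0.00104) and by 0.82 under TMZ (SE 0.11, adjusted p = 0.000145). The 95% intervals of probe 1 in those comparisons were -0.13 to 0.16 in both, and those of probe 2 were -0.30 to 0.01 and -0.18 to 0.13, which leave out the values of probe 3. The correlation of probe 3 over the 12 arrays was 0.15 with probe 1 and -0.16 with probe 2. Before normalization its DMSO arrays overlapped, at 154 to 163.4 with control siRNA and 161.5 to 169.3 with BCL3 siRNA. Its TMZ arrays did not, at 124.5 to 138.1 and 151.7 to 188. The limma call under DMSO was lost with mean raw intensity as a covariate (adjusted p = 0.0536). It was also lost with arrays scaled on the median of all probes (adjusted p = 0.0818). With TMZ and control siRNA the arrays of all 3 probes lay below those of DMSO, without a call, at -0.03, -0.25 and -0.29 (adjusted p = 0.869, 0.165 and 0.288). Which LDHA transcripts each probe binds was not tested, and no direction is given for the gene as a whole.

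PDK1, the pyruvate dehydrogenase kinase induced in hypoxia, lay near background, with all 12 values between 4.55 and 4.96. It was detected on 1 of 3 arrays in each group of control siRNA, on 3 with BCL3 siRNA and DMSO and on 2 with BCL3 siRNA and TMZ. BCL3 siRNA gave 0.07 under DMSO (SE 0.07, limma adjusted p = 0.464) and 0.20 under TMZ (SE 0.07, adjusted p = 0.0532), the latter without overlap of the arrays and just outside the threshold. TMZ gave -0.13 with control siRNA (adjusted p = 0.454), and its value with BCL3 siRNA was -0.01 (adjusted p = 0.972). So near background, a change of PDK1 is understated on this scale.

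**Figure D2:**
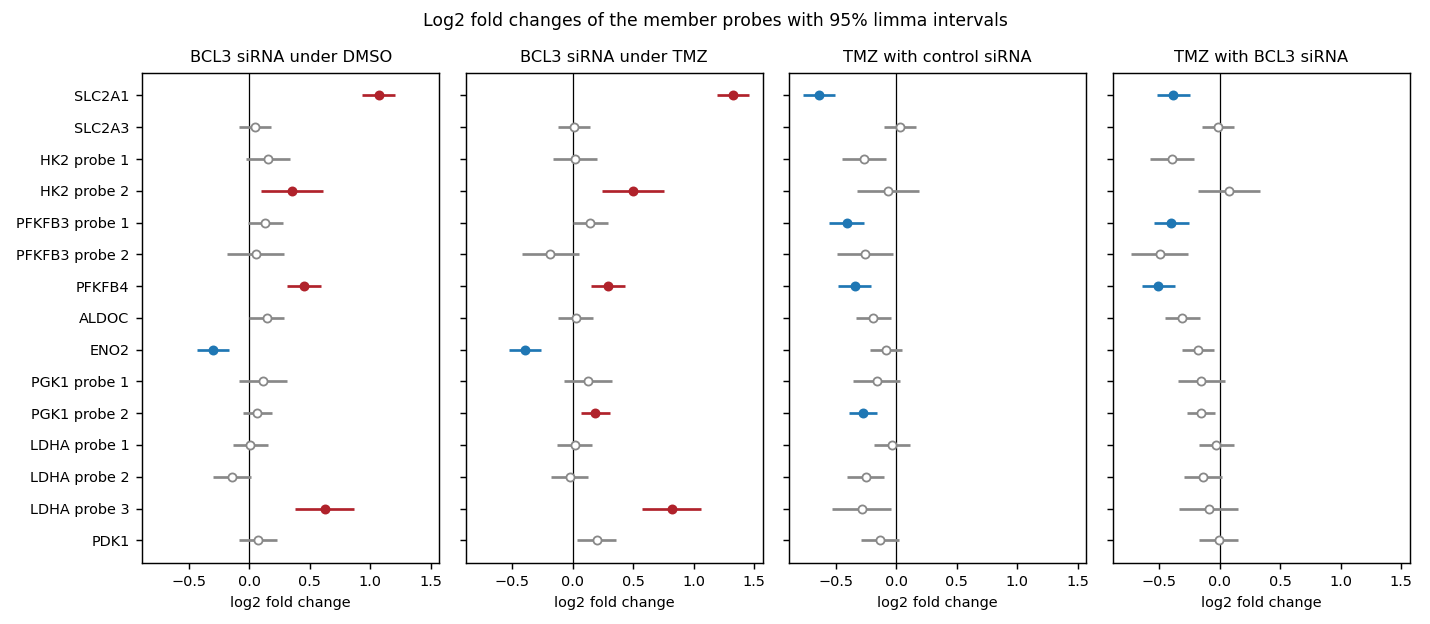
Log2 fold changes of the 15 probes in the 4 comparisons, 1 panel each, with 95% limma intervals; filled red points rose, filled blue points fell and open points did not pass. With BCL3 siRNA the points run from -0.40 for ENO2 to 1.33 for SLC2A1, and 13 of 15 under DMSO and 12 under TMZ lie above 0. In each TMZ panel 14 of 15 points lie below 0.

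How the 2 treatments combined was asked by the interaction, the difference between the BCL3 siRNA effects under TMZ and under DMSO. No member probe and none of the 18105 probes passed with limma, while 1 member (SLC2A1) and 1252 probes had an unadjusted p under 0.05. Over the other settings tried, 0 members passed and between 0 and 27 of all probes did. For PFKFB4 the interaction was -0.16 (95% interval -0.36 to 0.03), and for ENO2 it was -0.10 (-0.28 to 0.09). For PFKFB3 probe 1 it was 0.01 (-0.19 to 0.21), beside its TMZ values of -0.41 and -0.40 with the 2 siRNAs.

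No call for the interaction does not show, with 3 arrays a group, that the 2 responses to TMZ were alike. For SLC2A1 they were -0.64 with control siRNA and -0.38 with BCL3 siRNA. The effect of TMZ was also taken as the average over both siRNAs, a comparison added after the data were seen. This average rests on 6 arrays a side. Then 7 of the 15 probes fell and 0 rose, where 1.25% of all probes fell and 1.26% rose. The 7 were PFKFB4 (-0.43), SLC2A1 (-0.51), PFKFB3 probe 1 (-0.40) and probe 2 (-0.38), HK2 probe 1 (-0.33), ALDOC (-0.25) and PGK1 probe 2 (-0.22), with limma adjusted p from 6.54e-05 for SLC2A1 to 0.0241 for PFKFB3 probe 2. SLC2A3, LDHA probe 1 and HK2 probe 2 gave 0.01, -0.03 and 0.01, with adjusted p of 0.939, 0.771 and 0.975. With the arrays' mean raw intensity as a covariate the same 7 probes fell. That intensity was lower under TMZ with control siRNA (262 against 292) but higher under TMZ with BCL3 siRNA (267 against 248). In the average these opposite differences partly cancel, so the covariate is a weak check of it. The effect of BCL3 siRNA averaged over both treatments gave 7 rises and 1 fall among the 15, where 24.9% of all probes rose and 23.4% fell. PFKFB3 probe 1 (0.14), PGK1 probe 2 (0.13) and PDK1 (0.14) rose there beside the 4 probes called under DMSO. With the same covariate 5 rose and 1 fell, where 20.6% of all probes rose and 19.6% fell. PGK1 probe 2 (limma adjusted p = 0.0561) and PDK1 (adjusted p = 0.0709) then no longer passed.

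The scaling between arrays bears on these counts. When arrays were set to equal medians over the probes detected on all 12, the median of all probes in the comparison of BCL3 siRNA under DMSO was 0.11, against 0.01 with quantile normalization. The calls of all probes then split into 67.2% rises, against 50.4%, and 9 member probes rose and 1 fell. When the median was taken over all probes, detected or not, a setting added after the data were seen, the median of all probes was -0.24 and 4.42% of the calls were rises. SLC2A1 was then the sole member to rise and ENO2 the sole one to fall, and the median of the 15 probes was -0.13 in place of 0.11. For TMZ with control siRNA the latter scaling gave 16.2% rises against 54.4%, and for TMZ with BCL3 siRNA the 2 scalings gave 42.2% and 95.7% against 57.0%. For BCL3 siRNA under TMZ the share was 36.6% with the latter scaling against 50.2%. The median of the 15 probes stayed below 0 under both scalings in both TMZ comparisons, at -0.25 and -0.20 with the first and -0.37 and -0.03 with the latter.

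The calls for TMZ rest on few arrays. Leaving out any of the 3 arrays of control siRNA with DMSO or the 3 of control siRNA with TMZ, or the second of BCL3 siRNA with DMSO or the third of BCL3 siRNA with TMZ, left 1 or 2 of the 4 calls with control siRNA, with SLC2A1 always among them. Leaving out any of the 3 arrays of BCL3 siRNA with DMSO, or the third of BCL3 siRNA with TMZ, left 1 of the 3 calls with BCL3 siRNA, that of PFKFB4. Under none of these did a called member change sign. With mean raw intensity as a covariate 2 of 15 probes were called for BCL3 siRNA under DMSO, SLC2A1 and PFKFB4, and 1 for TMZ with control siRNA, SLC2A1.

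The other genes of the pathway were followed through 8 lists, each gene by its brightest probe. Of all 10686 genes so measured 38.1% passed with BCL3 siRNA under DMSO and 36.0% under TMZ, and 0.646% and 0.590% passed with TMZ under control and BCL3 siRNA. Among the 16 measured core glycolysis enzymes outside the 10 genes, 2 rose and 5 fell with BCL3 siRNA under DMSO, and 1 rose and 6 fell under TMZ, with medians of -0.03 and -0.08 against 0.01 and -0.00102 over all genes. The 7 calls under DMSO became 4 without the third array of BCL3 siRNA with DMSO, and the 7 under TMZ became 4 without the third array of either TMZ group. PGAM1, the phosphoglycerate mutase between PGK1 and enolase, fell by 1.28 under DMSO (SE 0.07, limma adjusted p = 6.56e-08) and by 1.25 under TMZ (SE 0.07, adjusted p = 9.03e-08), and its other probe fell by 1.16 and 1.33. PFKM, the muscle-type phosphofructokinase, fell by 0.36 and 0.30, and ENO3, the muscle enolase, fell by 0.54 under TMZ and was at -0.24 under DMSO without passing (adjusted p = 0.133). BPGM, which makes 2,3-bisphosphoglycerate, gave rises of 0.22 and 0.27, the first at -0.13 when arrays were scaled on the median of all probes, and PFKP, the platelet-type phosphofructokinase, a rise of 0.22 under DMSO. Of the broadly expressed enzymes of this list, named here after their values were seen, PKM fell under DMSO (-0.23, adjusted p = 0.015; -0.13 and adjusted p = 0.149 under TMZ) and TPI1 fell under TMZ (-0.21, adjusted p = 0.0204; -0.05 and adjusted p = 0.576 under DMSO). HK1, ALDOA, GAPDH, ENO1 and LDHB gave no call, with values between -0.09 and 0.14 in both comparisons. With TMZ and BCL3 siRNA 1 of the 16 genes passed, PFKP, which fell by 0.28 (adjusted p = 0.0486), and with TMZ and control siRNA 0 passed and 3 had an unadjusted p under 0.05. The fall of PFKP lay just inside the threshold and was lost in 19 of 29 other settings, among them leaving out any 1 of the 12 arrays.

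**Figure D3:**
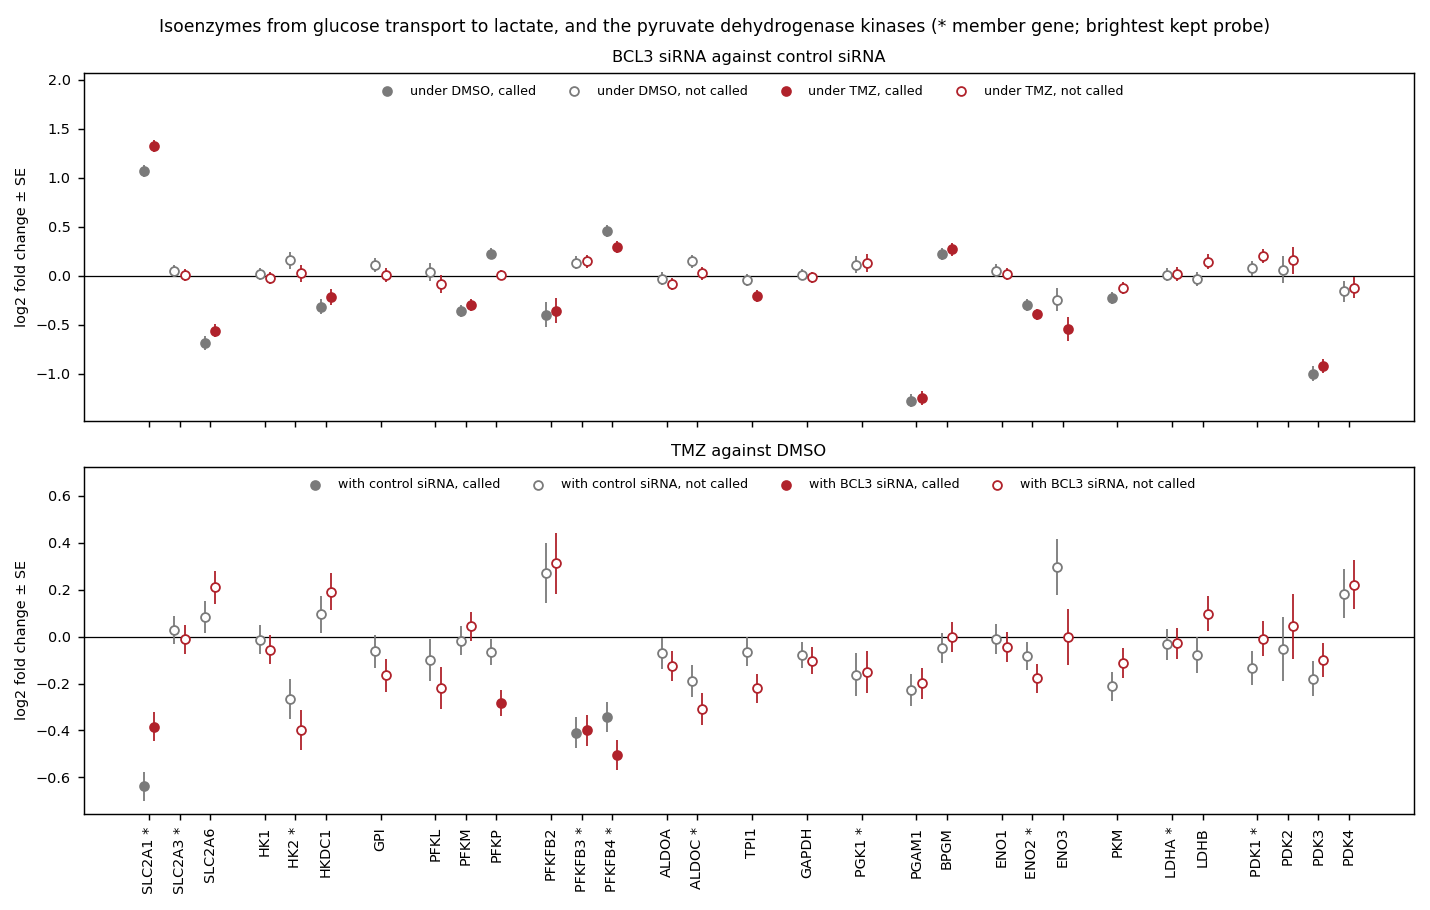
Log2 fold change with its SE for the brightest probe of each measured isoenzyme, ordered from transport to lactate and the pyruvate dehydrogenase kinases; members carry an asterisk, filled points passed and open points did not. The upper panel shows BCL3 siRNA, with SLC2A1 at 1.07 and 1.33 and PGAM1 at -1.28 and -1.25, and the lower panel shows TMZ on a narrower axis, with SLC2A1, PFKFB3, PFKFB4 and PFKP as the filled points.

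Few other transporters were measured, and those called with BCL3 siRNA were lower, where SLC2A1 was higher. Over all genes 38.1% passed in either direction under DMSO and 36.0% under TMZ. Of 4 measured hexose transporters outside the 10 genes 2 fell in both comparisons: SLC2A6 (GLUT6) by 0.69 under DMSO (SE 0.07, limma adjusted p = 1.11e-05) and by 0.56 under TMZ, and SLC50A1 by 0.43 and 0.56. The other probe of SLC50A1 gave -0.05 and -0.12 with no call. Of 2 measured lactate and pyruvate carriers 1 fell, SLC16A7 (MCT2), by 0.74 under DMSO (SE 0.11, adjusted p = 0.000353) and by 0.58 under TMZ. Without the second array of control siRNA with DMSO both carriers fell under DMSO. With TMZ 0 of these 6 genes passed with either siRNA, and 1 had an unadjusted p under 0.05 with BCL3 siRNA and 0 with control siRNA.

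Around pyruvate dehydrogenase 3 of 11 genes rose and 2 fell with BCL3 siRNA under DMSO, and 4 rose and 1 fell under TMZ. The complex subunits DLD (0.28 and 0.27) and PDHX (0.39 and 0.33) and the mitochondrial pyruvate carrier MPC1 (0.26 and 0.30) rose in both, although under DMSO DLD and MPC1 were at -0.050 and -0.026 when arrays were scaled on the median of all probes. The other MPC1 probe gave 0.15 under DMSO with no call (limma adjusted p = 0.104) and rose by 0.27 under TMZ. PDK3, a kinase of the same complex as PDK1, fell by 1.00 under DMSO (SE 0.07, limma adjusted p = 8.39e-07) and by 0.92 under TMZ, while its other probe gave -0.06 and -0.17 with no call. PDK2 and PDK4, named as the other kinases of the family, lay near background, as PDK1 did, and gave no call. With TMZ 0 of the 11 passed with either siRNA, and 1 had an unadjusted p under 0.05 with control siRNA and 0 with BCL3 siRNA.

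Branches that leave glycolysis moved to both sides with BCL3 siRNA. In the pentose phosphate pathway 3 of 10 genes rose in both comparisons: RPIA, ribose 5-phosphate isomerase, by 0.94 under DMSO (SE 0.07, limma adjusted p = 6.56e-07) and by 1.06 under TMZ, TKT, transketolase, by 0.60 and 0.49, and PGD by 0.29 and 0.29. PRPS1 fell by 0.28 under DMSO. Of 14 genes of glycogen and gluconeogenesis 7 rose and 3 fell under DMSO and 5 rose and 3 fell under TMZ, led by PPP1R3C, a glycogen-targeting subunit of protein phosphatase 1, at 0.82 and 0.85, with GYG1, glycogenin, at -0.41 and -0.40 on the other side. The 10 calls under DMSO became 6 without the third array of control siRNA with DMSO and 5 without the second or the third of BCL3 siRNA with DMSO. Of 17 tricarboxylic acid cycle genes 2 rose and 4 fell under DMSO and 3 rose and 5 fell under TMZ, with IDH3A at -0.52 and -0.47. The 8 calls under TMZ became 5 without the first or the second array of control siRNA with TMZ or the third of BCL3 siRNA with TMZ. With TMZ 1 gene of these 3 lists passed, IDH2, which rose by 0.35 with control siRNA (adjusted p = 0.0342), a call lost in 12 of 29 other settings, among them leaving out any of the 6 arrays compared or the second of BCL3 siRNA with DMSO.

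Of 23 known regulators of these genes 7 rose and 5 fell with BCL3 siRNA under DMSO, and 8 rose and 5 fell under TMZ. With the arrays' mean raw intensity as a covariate the calls under DMSO were 7 in place of 12 among the regulators, 3 in place of 7 among the other glycolysis enzymes, 2 in place of 5 around pyruvate dehydrogenase, 3 in place of 10 in glycogen and gluconeogenesis and 2 in place of 6 in the tricarboxylic acid cycle. EPAS1, which encodes HIF-2 alpha, fell by 0.75 under DMSO (SE 0.06, limma adjusted p = 2.88e-06) and by 0.77 under TMZ. The brightest HIF1A probe fell by 0.63 under DMSO (SE 0.10, adjusted p = 0.000422) and gave -0.26 under TMZ (adjusted p = 0.0666), and its other probes gave -0.31 and -0.15 under DMSO, the first of them past the threshold. TXNIP, which brings GLUT1 in from the cell surface, rose by 0.63 and 0.57, and its relative ARRDC4 by 0.74 and 0.68. The other ARRDC4 probe gave 0.28 under DMSO with no call (limma adjusted p = 0.113) and rose by 0.45 under TMZ. MYC rose by 0.43 under DMSO (adjusted p = 0.000153) and by 0.36 under TMZ, and its other probe by 0.81 and 0.75. MYC was also the sole regulator to fall with TMZ, by 0.41 in cells with control siRNA (adjusted p = 0.00809) and by 0.47 in those with BCL3 siRNA (adjusted p = 0.00343), although its other probe gave -0.17 and -0.23 with no call. The fall with control siRNA was not called without the second array of that siRNA with TMZ, nor with mean raw intensity as a covariate. That with BCL3 siRNA was not called with arrays scaled on the median of all probes, nor with only the arrays compared. These lists share both BCL3 siRNA comparisons with the members, so the values stand side by side and show no link between a regulator and a member.

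**Figure D4:**
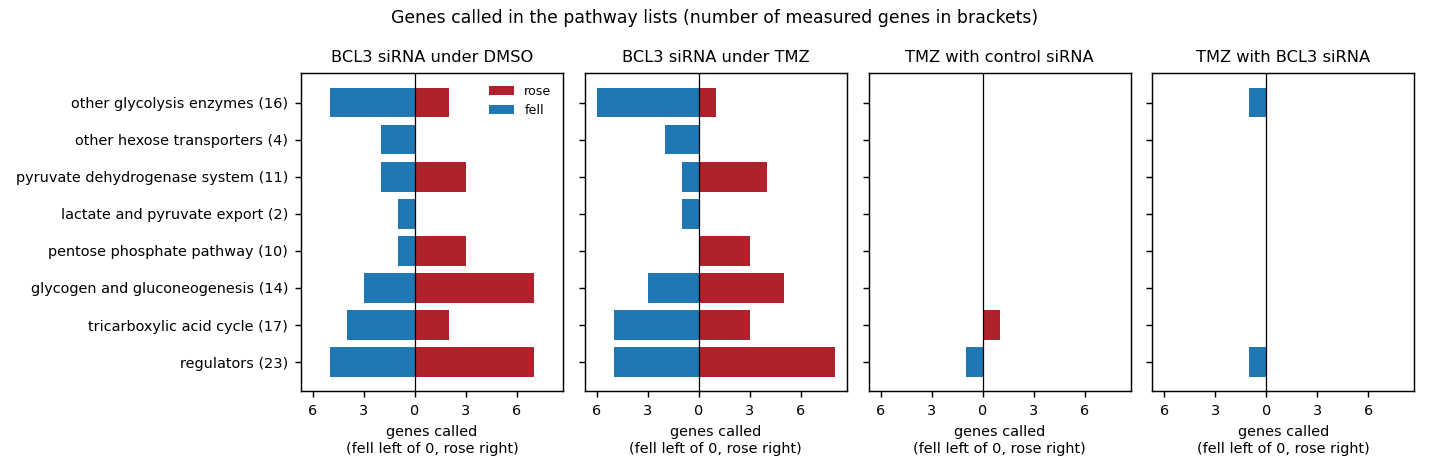
Number of genes that rose (right of 0, red) or fell (left of 0, blue) in each of the 8 pathway lists and 4 comparisons, with the number of measured genes in brackets. BCL3 siRNA shows calls on both sides in most lists, for example 7 rises and 5 falls among 23 regulators under DMSO, while each TMZ panel holds 2 calls.

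The genes with the pattern most like each member over the 12 arrays were listed by Pearson correlation of normalized log2 values, as a description, since arrays of a group share their treatment and 4 group levels carry most of it. SLC2A1 was most like TUFT1 (0.995), P4HA1, a collagen prolyl hydroxylase (0.990), and ERRFI1, an inhibitor of EGFR signalling (0.984). PFKFB4 was most like MYC (0.980), H2AJ (0.974) and ANGPTL4 (0.953). ENO2 was most like HBEGF, an EGFR ligand (0.987), LOXL3 (0.979) and TUBB3, a tubulin of neurons (0.978). HK2, by probe 1, and PFKFB3, by probe 1, were both most like RRS1, a ribosome assembly factor (0.929 and 0.977), and PFKFB3 was itself the next closest gene to HK2 (0.927). ALDOC was closest to ANGPTL4 (0.944), PGK1 to ZNF419 (0.912), LDHA to SNX22 (0.918), PDK1 to ZNF766 (0.898) and SLC2A3, which varied least, to FANK1 (0.849).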

How the data were processed

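RNA from 12 U87 samples was measured on Illumina bead arrays after amplification to biotinylated cRNA, per the labels' protocols. The deposited raw intensities, 72.8 to 20797.5, are linear, bead-averaged and not background-subtracted or normalized, per the file headers and the values, and each has a deposited detection p-value. The headers repeat 1 name for the detection p-value columns. Each was assigned to an intensity column by tied intensities, which should share a p-value on their own array. Ties with differing p-values numbered at most 748 in the columns so paired and at least 22569 in any other pairing. The deposited value table of the authors, from -14.1 to 18425.3, looks background-subtracted and quantile-normalized on a linear intensity scale, judged from the values; the software is not given in the sources used here.

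Raw intensities were background-corrected, quantile-normalized and taken to log2 with neqc (limma 3.58.1 in R 4.3.3, offset 16, with the level of the negative controls derived from detection p-values). A probe was kept if its detection p was under 0.01 on 3 or more of 12 arrays, which left 18105 of 47320, among them all 15 member probes. One model of the 4 group means was fitted with limma's lmFit and eBayes on all 12 arrays (8 residual degrees of freedom), 2-sided, with Benjamini-Hochberg adjustment over all 18105 probes and a threshold of 0.05. The number of arrays limits the precision. Probe symbols came from the platform annotation (30112 probes with 1 symbol, 8 with several and 17200 with none), and 30073 were matched to current symbols. A gene was represented by its brightest kept probe where genes were counted (10686 genes).

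The named genes are the 10 members, BCL3, up to 3 called genes with the lowest p in each direction per pathway list and comparison (where none was called, up to 2 with the largest fold change), and the 3 genes most correlated with each member; exceptions are marked. The members, lists and tests were chosen with earlier results of these data known. The main model did not pair the samples by replicate number. Over 18 pairs of same-numbered arrays the deviations from group means correlated at -0.15 to 0.18, with 4 over 0.1. The highest was between the third arrays of BCL3 siRNA with DMSO and with TMZ. Differently numbered arrays were not compared, so these values do not settle whether the samples were paired. The model fit was tested on simulated data. The alternatives tried were other background corrections, scalings, filters, models and leaving out each array.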

Additional observations from a re-analysis of the deposited data

How the results depend on the processing

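Of 18 called member fold changes, 6 kept their call under all 29 alternatives and none changed sign: SLC2A1 with BCL3 siRNA under DMSO and TMZ and with TMZ and control siRNA, and HK2 probe 2, ENO2 and LDHA probe 3 with BCL3 siRNA under TMZ. Probes that are not the brightest of their gene have 28 alternatives, since 1 probe per gene leaves them out. Of 72 fold changes of the other named genes, 40 kept their call throughout and 6 reversed, all for BCL3 siRNA under DMSO when arrays were scaled on the median of all probes: BPGM (-0.13), DLD (-0.050), MPC1 (-0.026), GBE1 (-0.042), SDHD (-0.046) and OGDH (-0.068). That scaling moved the median of all probes by -0.24 in this comparison. Of 1144 counts for the pathway lists, 98 moved by more than 1.5 times. Values near background, such as PDK1, limit what can be seen.

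Counts that moved by more than 1.5 times are given as member probes called, then all probes called. For BCL3 siRNA under DMSO, with 5 members and 6325 probes, the members were 10 with median scaling, 2 with scaling on the median of all probes, 3 of 10 with 1 probe per gene, 8 averaged over both treatments, and 2 (2992 probes) with mean raw intensity as a covariate. For BCL3 siRNA under TMZ, with 6 and 6063, scaling on the median of all probes called 3648 probes. For TMZ with control siRNA, with 4 and 90, the probes were 356 with normexp by maximum likelihood, 467 without background correction, 298 with an offset of 50, 160 with scaling on the median of all probes, 386 with trend and robust moderation and 173 with array weights. There the members and probes were 2 and 59 with a detection p under 0.05, 1 and 23 with the covariate, 2 and 55 with only the arrays compared, and 7 and 454 averaged over both siRNAs. For TMZ with BCL3 siRNA, with 3 and 86, they were 6 and 311 with normexp by maximum likelihood, 6 and 358 without background correction, 6 and 266 with an offset of 50, 6 and 321 with trend and robust moderation, 6 of 14 and 142 over probes detected on all 12 arrays, 0 and 139 with scaling on the median of all probes, 0 and 6 with only the arrays compared (fewer samples), 7 and 454 averaged over both siRNAs, and 5 members with 1 probe per gene (fewer tests). For the interaction, with 0 and 0, the probes were 4, 3, 5 and 3 with normexp, no background correction, the offset of 50 and trend and robust moderation, and 27 with scaling on the median of all probes. The parentheses describe the setting, and the cause of a move was not tested.

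With the replicate number as a block, 2 members and 57 probes were called for TMZ with control siRNA, and no other of these counts moved by more than 1.5 times. Leaving out each array in turn gave 4 to 5 members and 4975 to 6395 probes for BCL3 siRNA under DMSO, 5 to 7 and 4877 to 6166 under TMZ, 1 to 3 and 35 to 87 for TMZ with control siRNA, 1 to 3 and 31 to 80 with BCL3 siRNA, and 0 and 0 for the interaction.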
